A study of Ovis aries with 40 samples.

Results

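MT1A and MT2A, which encode metallothioneins, and HP, which encodes the plasma protein haptoglobin, were examined in the LM muscle of the High-Low sheep. The genes were chosen by symbol from results of these arrays that were already known, the wide spread of HP between animals among them. Their levels and spread are therefore given as a description, and the tests below, taken from fits over all detected genes, are not independent support for them. MT1E, the other metallothionein sought, had no probe set with that symbol in the annotation used here. The remaining 3 of the 4 genes had 1 probe set each, out of 9155 genes with a probe set of a single symbol.

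The High-Low group consisted of 40 Poll Dorset sheep at 78 weeks of age, with 1 array per animal. Of these, 19 were progeny of sires with a high estimated breeding value for eye muscle depth (8 of sire 11, 7 of sire 2 and 4 of sire 7), and are called high muscling. The other 21 were progeny of sires with a low value (8 of sire 16, 5 of sire 17 and 8 of sire 5), and are called low muscling. All animals were raised in the same way, as is usual in the industry, the labels name no treatment, and the muscling class is that of the sire, not a measurement on the animal. Since each sire belonged to 1 class, muscling class and sire family cannot be told apart except through the spread among 3 sires per class. The array was a bovine one hybridised with sheep RNA, and a signal is the MAS5 intensity, in which the trimmed mean of each array is 200. Median signals of the arrays were 56.1 to 67, the array least like the others had a median Pearson correlation of 0.925 with them, and the number of arrays limits the precision.

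Metallothioneins are small proteins rich in cysteine that bind zinc and copper, and their genes are switched on by these metals, through the transcription factor MTF1, and by glucocorticoids. In muscle they are known to rise in wasting and after injury. Haptoglobin binds free haemoglobin in the blood so that macrophages can take it up through CD163, and it is an acute phase protein made mostly by the liver and also by fat cells. The metallothionein genes are close copies of each other, and how far each bovine probe set takes up RNA of other sheep copies was not tested.

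All 3 genes were above the detection line of 61.8, the median over the mean signals of the probe sets other than controls. MT2A had a mean signal of 500.02 ± 253 (SD, n = 40), MT1A of 227 ± 173 and HP of 129 ± 216, although levels of RNA cannot be set against each other between probe sets. The log2 signal of HP had an SD of 1.62 over the 40 animals, at rank 2 of 6360 detected genes, while MT1A had 1.10 at rank 100 and MT2A 0.61 at rank 1112, against a median of 0.38 over the detected genes. In single animals HP was under the detection line in 18 of 40, MT1A in 3 and MT2A in 0, so that the spread of HP includes differences between signals under the line.

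HP, the haemoglobin scavenger, was mostly under the detection line in high muscling. Among the 8 progeny of sire 11 the HP signal had a lowest value of 28.5, a median of 54.3 and a highest of 66.1, and among the 7 of sire 2 these were 7.2, 59.2 and 125.3. The 4 progeny of sire 7 had HP signals of 5.1, 5.9, 29.1 and 31.5, all under the detection line. Thus 14 of the 19 high muscling animals were under the line. In low muscling, 4 of 21 were. The 8 progeny of sire 16 had a lowest HP signal of 34, a median of 96.9 and a highest of 1100.8, and the 8 of sire 5 had 39, 126 and 392.5. The 5 progeny of sire 17 had HP signals of 28.6, 50.8, 102.3, 116 and 167.3. The families overlapped. The highest values came from a few animals, namely progeny 99 and 45 of sire 16 with 1100.8 and 899.8, progeny 80 of sire 5 with 392.5 and progeny 2 of sire 16 with 252, and 8 of the 21 low muscling animals were above the highest high muscling animal.

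MT1A, a metallothionein of the metal-responsive class, had signals in high muscling from 19.6 through a median of 110.8 to 265.5, and in low muscling from 79.3 through 277.1 to 900. All 19 high muscling animals were below the median of low muscling, and 11 of the 21 low muscling animals were above every high muscling animal. By family the median MT1A signal was 121 for sire 11, 96.5 for sire 2 and 143 for sire 7, against 328 for sire 16, 297 for sire 17 and 237 for sire 5. The 4 progeny of sire 7 had MT1A signals of 19.6, 110.8, 174.5 and 174.7, and the 5 of sire 17 had 79.3, 211.8, 297.1, 335.7 and 433.9. MT1A in these families therefore overlapped.

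MT2A, the other metallothionein measured, had signals from 219.7 through a median of 362.3 to 549.7 in high muscling and from 276.1 through 579.4 to 1287.8 in low muscling. Again all 19 high muscling animals were below the low muscling median, and 12 low muscling animals were above the highest high muscling animal. The family medians of MT2A were 327 for sire 11, 374 for sire 2 and 430.1 for sire 7, and 628 for sire 16, 423 for sire 17 and 546 for sire 5. MT2A was most even in the progeny of sire 11, from 281.1 to 399.6, with an SD of 0.17 on the log2 scale, and the 5 other families had SDs of 0.43 to 0.64.

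**Figure D1:**
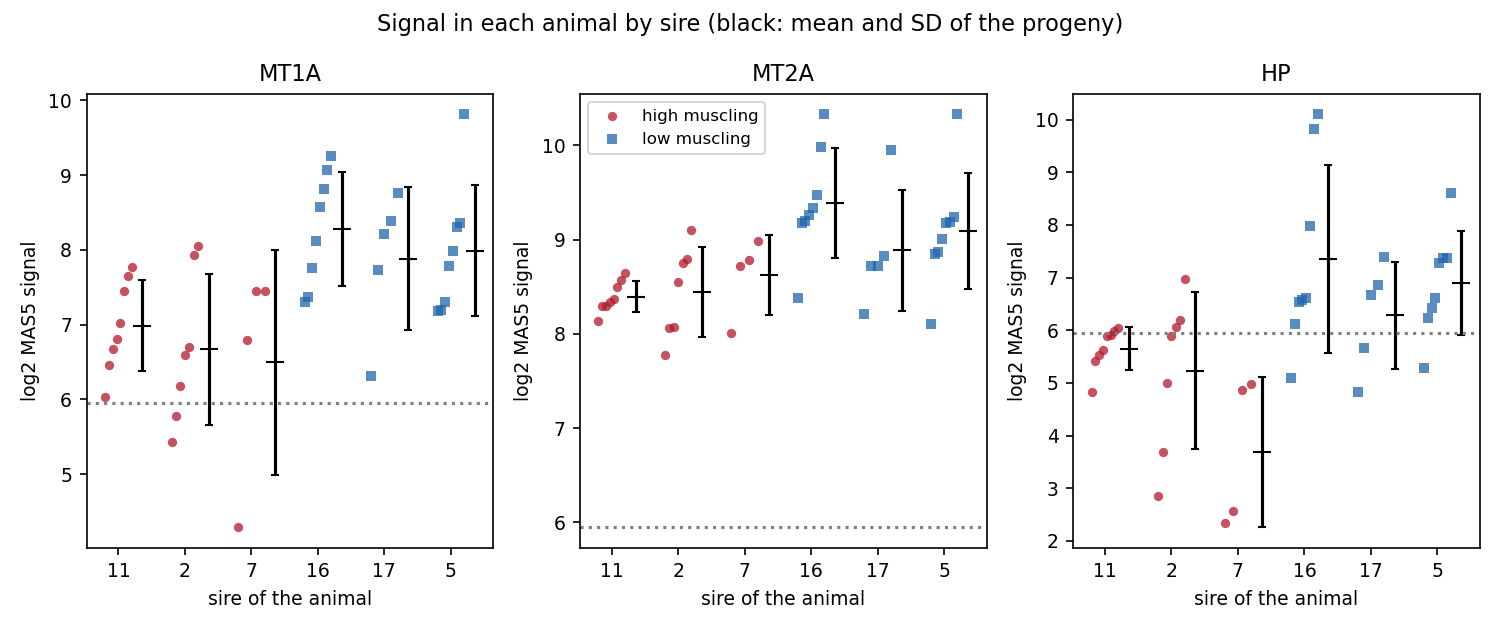
Log2 MAS5 signal of MT1A, MT2A and HP (vertical axes, each with its own range) for each of the 40 animals, by sire (horizontal axis), with circles for high and squares for low muscling. Black bars give the mean and SD of each family and dotted lines the detection line, under which all 4 progeny of sire 7 lie for HP.

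With sire as a block, MT1A and HP were called lower in high than in low muscling, but neither call held in all settings. That of HP also depended on how its signals under the detection line were treated. MT2A had a difference in the same direction that did not pass the test. For MT1A the log2 difference was -1.32 ± 0.38 (SE) in high muscling (adjusted p = 0.0277, limma with sire as a random block), so that low muscling had 2.50 times the signal of high muscling (95% confidence interval 1.46 to 4.28). For HP it was -1.90 ± 0.56 (adjusted p = 0.0292, same fit), but HP counted as detected only through low muscling, with a mean signal of 204 there and of 45.5 in high muscling. With signals below the 20th percentile (14.7) set to it, the HP difference was -1.65 ± 0.50 and still called (adjusted p = 0.0326, limma). With every signal under the detection line set to that line, an alternative chosen after seeing the data, the HP difference was -1.01 ± 0.37 and no longer called (adjusted p = 0.0878, limma). In that fit the difference of MT1A was -1.18 (0.0229) and that of MT2A -0.67 (0.0485). With sire means as samples, the level at which muscling class was assigned, neither MT1A (-1.33, adjusted p = 0.0726) nor HP (-1.99, 0.198) was called, and limma called 0 genes, with 886 at an unadjusted p under 0.05. For MT2A the difference with signals as they stand was -0.67 ± 0.22, or 1.59 times (1.17 to 2.17), with an adjusted p of 0.0505 in the first fit. Of the 6360 detected genes, 350 (5.50%) were called lower in high muscling and 495 (7.78%) were called in either direction. HP and MT1A, 2 of the 3 genes, were among those called lower with signals as they stand, and nothing is read from that share, since the genes were chosen with results of these arrays known. With each array centred on its median, 556 of 648 calls (85.8%) were lower in high muscling in place of 70.7%, and all 3 genes were called. From the most negative difference, MT1A was at rank 5 and MT2A at rank 154 of the detected genes, HP was at rank 1 with signals as they stand and at rank 22 with those under the line set to it, and the middle 95% of the genes lay between -0.66 and 0.50.

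The calls rested on several families. The difference kept its sign for all 3 genes without the progeny of any 1 sire, but HP was no longer called without sire 7 (-1.44, adjusted p = 0.153), sire 16 (-1.65, 0.188) or sire 5 (-1.90, 0.215), and MT1A without sire 2 (-1.28, 0.0796), sire 7 (-1.23, 0.0589), sire 16 (-1.20, 0.254) or sire 5 (-1.36, 0.168). MT2A was called without sire 17 (-0.77, adjusted p = 0.00749). Calls over all detected genes that were lower in high muscling numbered 20 without sire 16 and 16 without sire 5, in place of 350.

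**Figure D2:**
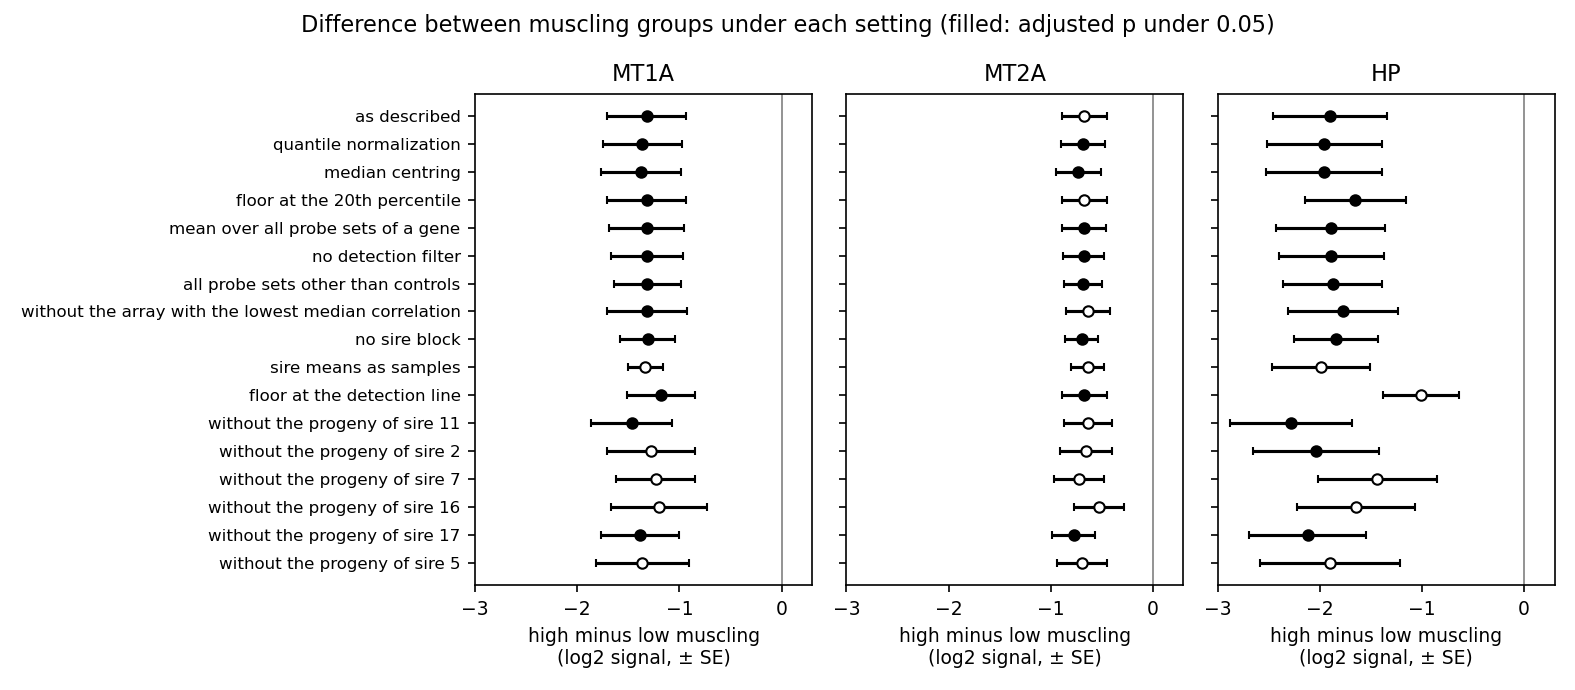
Difference of MT1A, MT2A and HP between high and low muscling on the log2 scale (horizontal axes, bars give the SE) under each setting of the fit (rows), with filled circles where the adjusted p was under 0.05. Differences ranged from -2.28 to -1.01 for HP, -1.47 to -1.18 for MT1A and -0.77 to -0.53 for MT2A.

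Taken by family, the 3 high muscling sires had lower means than the 3 low muscling sires for each of the 3 genes. The mean log2 signal of HP rose in the order of sires 7, 2, 11, 17, 5 and 16, from 3.69 to 7.36. MT1A gave the same order, from 6.50 to 8.28, and MT2A the order 11, 2, 7, 17, 5 and 16, from 8.39 to 9.39. Sire means did not overlap in this direction for 728 (11.4%) of the detected genes, and an exact permutation test of 3 against 3 sires gave p = 0.1 (two-sided) for each of the 3 genes, which is the smallest it can give. Most neighbours in these orders were closer than the SD within families. The exception for MT1A was the step from sire 11 to sire 17 (0.90, against a pooled SD of 0.75), and there was none for MT2A. For HP the step from sire 7 to sire 2 was 1.55 against 1.46, but all 4 progeny of sire 7, 4 of the 7 of sire 2 and 6 of the 8 of sire 11 were under the detection line, so the order of these 3 families is not read.

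Families of the same muscling class were not called different for any of the 3 genes. In the test among the sires within each class, the adjusted p was 0.847 for MT1A (F = 0.427), 0.564 for MT2A (F = 0.995) and 0.172 for HP (F = 2.40), by limma's moderated F. In the same test 1402 (22.0%) of the detected genes were called. Of the variation of log2 HP over animals, 33.2% lay between the muscling classes, 13.8% between sires of a class and 53.0% within families. For MT1A these shares were 36.5%, 2.83% and 60.7%, and for MT2A 33.2%, 6.66% and 60.1%, beside medians of 5.44%, 16.1% and 74.1% over the detected genes.

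The 3 genes varied together over the 40 animals. Pearson r was 0.61 for MT1A with HP (p = 2e-05), 0.61 for MT1A with MT2A (p = 5e-05) and 0.57 for MT2A with HP (p = 9e-05), by two-sided permutation tests of the 3 pairs, not adjusted for their number. Spearman's rho was 0.76, 0.62 and 0.62 (p = 1e-05, the smallest the permutations can give, 4e-05 and 3e-05). Without the 2 animals farthest from the median of the first gene of each pair, r was 0.67, 0.62 and 0.52. Part of this followed the families. With the mean of each sire removed, r was 0.37 for MT1A with HP (p = 0.0358, permuted within sires), 0.40 for MT1A with MT2A (p = 0.0207) and 0.40 for MT2A with HP (p = 0.0251). Many other genes reached such values. Among the 6359 other detected genes, HP was then at rank 371 and MT2A at rank 279 by r with MT1A, and HP at rank 256 by r with MT2A. Within the 21 low muscling animals r was 0.56, 0.61 and 0.43 (permutation p = 0.00868, 0.00299 and 0.0528), and within the 19 high muscling animals it was 0.25, 0.09 and 0.25 (permutation p = 0.292, 0.729 and 0.294). Whether the 2 classes differ in r was not tested.

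**Figure D3:**
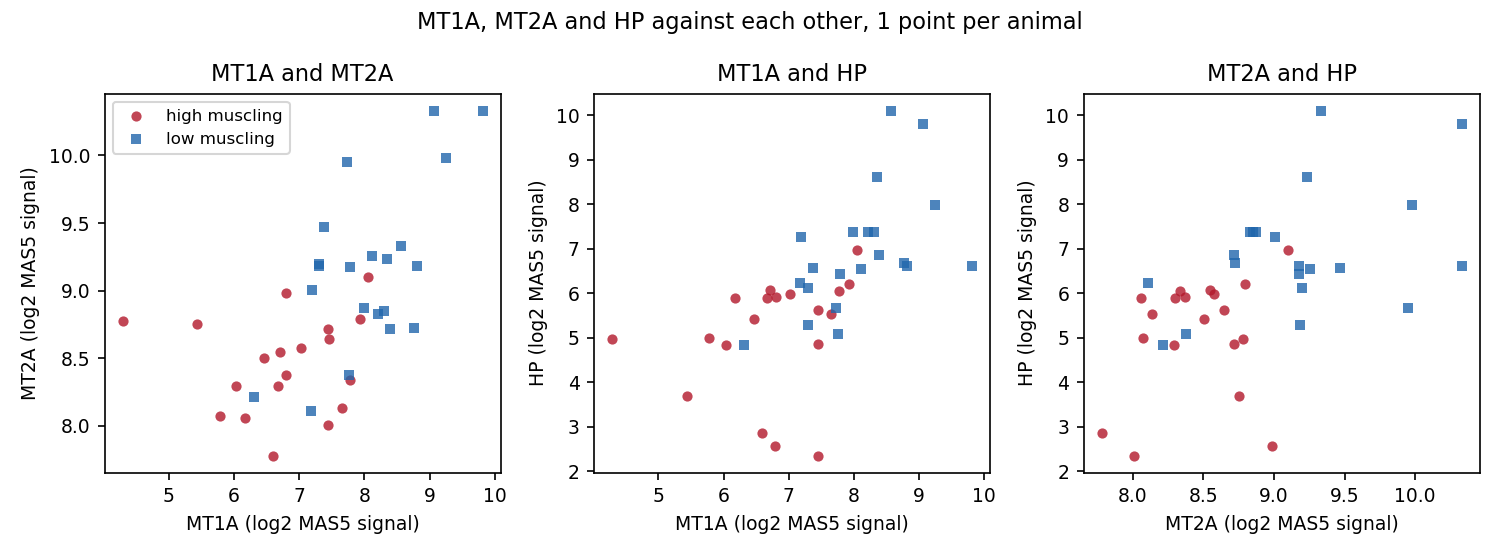
Log2 MAS5 signals of each pair of MT1A, MT2A and HP, with 1 point per animal, circles for high and squares for low muscling. The pooled Pearson r is 0.61, 0.61 and 0.57 from left to right, and the high muscling animals alone show little relation (0.09, 0.25 and 0.25).

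Single animals show how far the 3 genes went together. Progeny 2, 45 and 99 of sire 16 and progeny 80 of sire 5 were among the 10 highest animals for each of the 3 genes, and 1 progeny of sire 11, progeny 71 of sire 17 and progeny 3 and 47 of sire 2 were among the 10 lowest for each. The 10 highest animals were low muscling in 10 cases for MT1A, 10 for MT2A and 9 for HP. In some animals the genes parted. Progeny 39 of sire 17 had an MT2A signal of 991.2, the 4th highest, with HP at 50.8 and MT1A at 211.8. Progeny 11 of sire 5 had the highest MT1A signal (900) and the 2nd highest MT2A signal (1286.5) with HP at 98.2. Progeny 58 of sire 7 had the lowest MT1A signal (19.6) with MT2A at 439.2.

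Each of the 3 genes had a higher r with other genes than with the rest of the 3. The values of r below describe 40 animals that share families and arrays, without a test, and each is given over 6359 other detected genes. A low and a high percentile of r over these genes were -0.50 and 0.60 with MT1A. With MT2A these limits were -0.53 and 0.57, and with HP -0.48 and 0.57. An r between the limits, here and for the gene lists below, is like that of most detected genes. Every r with HP, here and below, uses signals as they stand, including those of the 18 animals under the detection line. Differences between such low signals therefore weigh on it. HP was most like MEDAG (r = 0.77), a gene of fat cell development, the proteasome subunits PSMA5 (0.76) and PSMA1 (0.73), ATP6V0D1 (0.76), a subunit of the vacuolar proton pump, and DNAJB9 (0.72), a chaperone of the endoplasmic reticulum. It was least like the kinase WNK2 (-0.74), the importin KPNA3 (-0.70) and the Wnt pathway gene AXIN1 (-0.69). MT1A was most like CCN2 (0.78) and THBS1 (0.77), which encode secreted matricellular proteins, RRAD (0.76), a small GTPase, PRELID1 (0.75) and the translation factor EIF4A1 (0.75), and least like CTCF (-0.72), AGPAT5 (-0.71) and EZH1 (-0.69). MT2A was most like TIMP1 (0.77), an inhibitor of metalloproteinases, the chloride channel protein CLIC1 (0.76), EIF6 (0.74), LOC613358 (0.74) and RHOC (0.73), and least like KPNA3 (-0.79), ZBTB18 (-0.75) and ATMIN (-0.74). HP was at rank 126 among the genes most like MT1A, and MT2A at rank 146. Of these 23 genes, LOC613358, RHOC, MEDAG and ATP6V0D1 were not called between high and low muscling. The others were, beside 7.78% of all detected genes. Nothing is read from that share, since the 23 were picked by their r, over both classes, with genes whose signals differed between the classes.

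None of the detected genes of zinc and copper handling was called between high and low muscling. Of 30 such genes 21 were measured and 15 were detected, and 0 were called in the limma fit, beside 7.78% of all detected genes, which for a list of this size is near the background. The median log2 difference was -0.14 beside -0.04 over all detected genes. MT3, a metallothionein known mainly from the brain, had signals of 15.5 to 129.4 in high and 11 to 96.3 in low muscling, with a log2 difference of 0.15 ± 0.32 (adjusted p = 0.852, limma), and r with MT1A of -0.27. MTF1, the metal sensor that drives metallothionein genes, had -0.14 ± 0.40 (adjusted p = 0.891, same fit) and an r of -0.05 with MT1A. Mean signals of MT3 and MTF1, 65.9 and 65.4, were close to the detection line of 61.8, and MT3 was under it in 19 of 40 animals. SLC30A1, of the same list, was under the line with a mean of 45.7. Signals this low say little about either gene, and a response to metals was not tested. The zinc importer SLC39A1 was the gene of the list with the highest r with MT1A (0.66), HP (0.51) and MT2A (0.51), and had a difference of -0.34 ± 0.14 that did not pass (adjusted p = 0.144).

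Among 14 detected genes of the glucocorticoid response, which metallothionein genes also belong to, 1 was called, a share near the 7.78% of all detected genes. This was NR3C1, the glucocorticoid receptor, which was higher in high muscling by 0.49 ± 0.16 (adjusted p = 0.0454, limma) and had r of -0.59 with MT2A, -0.41 with MT1A and -0.30 with HP. FKBP5, a chaperone of the receptor and one of its targets, had the highest r with HP of the list (0.66) and 0.59 with MT1A, and CEBPD, a transcription factor, had 0.57 and 0.54. Neither was called (log2 differences of -0.74 ± 0.43 and -0.67 ± 0.48). The log2 of the summed signal of the 15 measured genes had an r of 0.60 with HP, 0.52 with MT1A and 0.23 with MT2A, and of 0.58, 0.49 and 0.19 with the mean of each sire removed, while the sum itself lay between 11246 and 43919 in high and between 11749 and 41978 in low muscling. Most of the sum came from PDK4, GLUL and DDIT4, with mean signals of 9431, 6275 and 5256.

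Of 33 other acute phase genes 25 were measured and 11 were detected in this muscle, and CRP, ORM1, FGB, FGG, LBP, HPX and SERPINA1 were under the detection line with means of 14.7 to 49.3. Of the 11 detected genes 1 was called, again beside 7.78% of all detected genes. This was TIMP1, which was lower in high muscling by a log2 difference of -0.92 ± 0.17 (adjusted p = 7.8e-04, limma). SAA3, the serum amyloid form made outside the liver, had -0.48 ± 0.23 (adjusted p = 0.224, same fit) and r of 0.32 with HP and 0.43 with both metallothioneins. Of the 8 measured genes of haemoglobin and haem clearance 7 were detected and 0 called in the limma fit, which for so few genes is near the same 7.78%. HMOX1 and HMOX2, which encode the haem oxygenases, had r of 0.62 and 0.57 with HP, and the ferritin light chain FTL 0.57, while TFRC, the transferrin receptor, had -0.50, the ferritin heavy chain FTH1 -0.24, and the biliverdin reductases BLVRA and BLVRB 0.01 and -0.01. The median r with HP over the 7 detected genes was 0.01, and the summed signal of the 8 measured had an r of 0.05 with HP. Most of this sum was FTH1, at a mean signal of 23213, while HMOX1 and HMOX2 had means of 113 and 150.

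**Figure D4:**
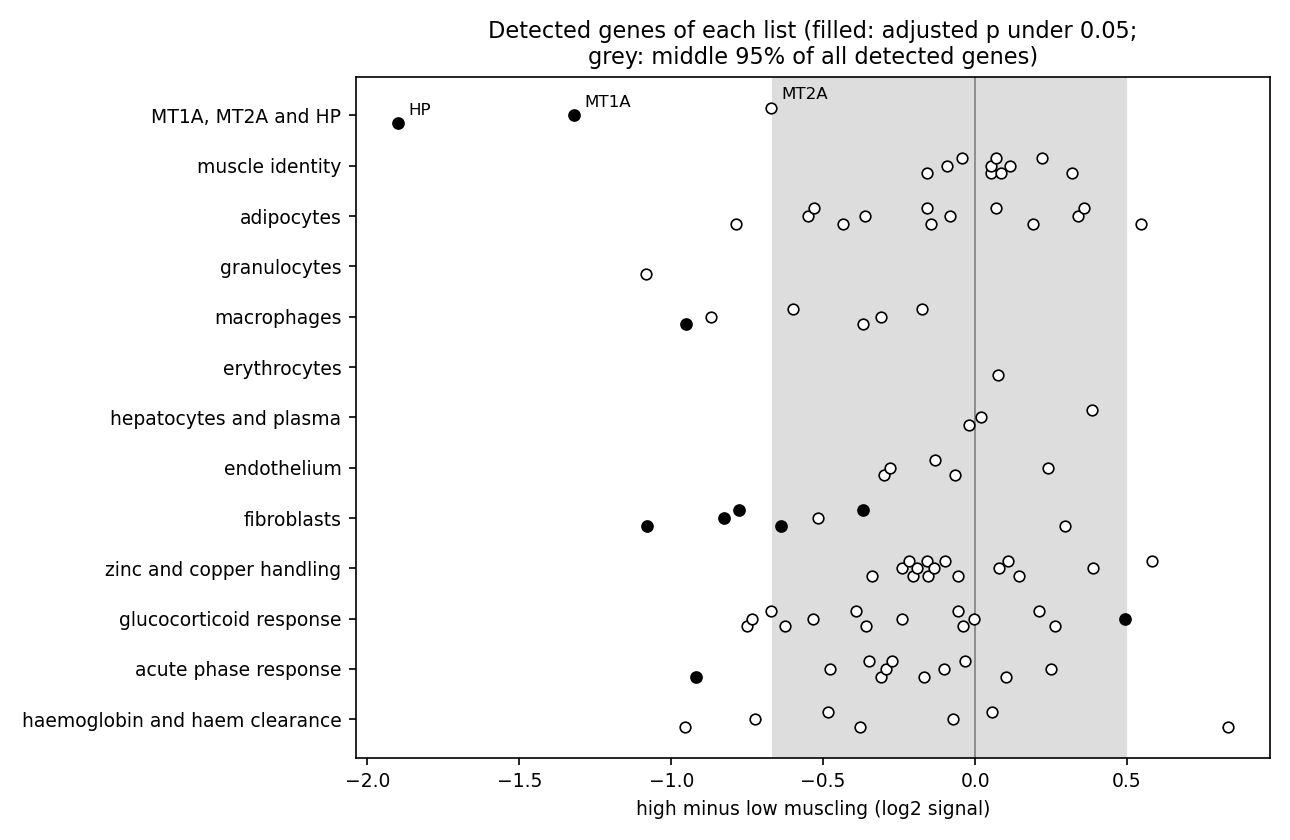
Log2 difference between high and low muscling (horizontal axis) of MT1A, MT2A and HP and of the detected genes of each list (rows), with filled circles where the adjusted p was under 0.05. The grey band holds the middle 95% of all detected genes, from -0.66 to 0.50, and HP and MT1A lie to its left at -1.90 and -1.32 (-1.01 and -1.18 with signals under the detection line set to it).

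The summed signal of macrophage markers had an r above the range of most detected genes, and r of the fibroblast sum stayed within it. That range is of single genes, and a range for sums was not computed. Most markers of granulocytes and of liver were under the detection line. In whole muscle, fewer cells of a type and less RNA per cell cannot be told apart. Beside 5.50% of all detected genes called lower, 1 of 6 detected macrophage markers was, AIF1 (-0.95 ± 0.25 in high muscling, adjusted p = 0.0156, limma). The summed signal of the 7 measured was 619 to 1248 in high and 793 to 2481 in low muscling, with r of 0.71 with MT1A, 0.65 with HP and 0.60 with MT2A. AIF1, at a mean signal of 503, made the largest part of this sum. Single markers were uneven. AIF1 had r of 0.69 with MT1A, 0.60 with HP and 0.54 with MT2A, the last within the range of most genes. For C1QA these were 0.64, 0.60 and 0.47, and for C1QB 0.07, 0.16 and 0.21. Of 7 detected fibroblast markers 5 were called lower in high muscling, beside the same 5.50%, such as COL3A1 (-1.08 ± 0.31, adjusted p = 0.0251) and FBLN1 (-0.64 ± 0.17, adjusted p = 0.0133, same fit). The others were LUM (-0.52 ± 0.18, adjusted p = 0.0666) and PDGFRA (0.30 ± 0.39, adjusted p = 0.721, limma), the latter with an r of -0.22 with MT1A and -0.17 with HP. The sum of the 7 was 4852 to 11880 against 7677 to 22259, with r of 0.55 with MT1A, 0.55 with HP and 0.42 with MT2A. With the mean of each sire removed, r of the macrophage sum was 0.53 with MT1A, 0.42 with HP and 0.34 with MT2A, and r of the fibroblast sum was 0.26, 0.26 and 0.03. The part of these cells in the differences was not tested.

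Of 13 detected fat cell markers 0 were called in the limma fit, beside 7.78% of all detected genes. For lists of this size, here and for the endothelial and muscle markers below, 0 calls are near that share. The sum of the 17 measured, 3572 to 12767 in high and 4006 to 16985 in low muscling, had an r of -0.14 with HP. CD36, at a mean signal of 3586, made the largest part of this sum. The gluconeogenic enzyme PCK1 (-0.50) and the desaturase SCD (-0.43) had the most negative r with HP. Of the 13 detected, 6 had an r above 0 with HP, up to 0.15 for FABP4, and the median was -0.11. Of the 9 liver and plasma markers 6 were under the detection line (TTR, FGB, FGG, APOA2, SERPINC1 and F2). Of those above it, ALB had a difference of 0.02 ± 0.09 (adjusted p = 0.932, limma) and an r of -0.31 with HP. AHSG had a difference of -0.02 ± 0.08 and an r of 0.22 with HP, and APOA1 had 0.39 ± 0.42 and -0.08. The sum over these 9 genes was 1582 to 2441 in high and 1764 to 2290 in low muscling. Granulocytes store haptoglobin, but of their 10 measured markers only CHI3L1 was detected (-1.08 ± 0.49, adjusted p = 0.183, limma, r of 0.51 with HP), and S100A8, S100A9, LTF and MPO were under the line. Of red cell markers HBB was under the line and HBA, above it, had an r of -0.01 with HP. Of 5 detected endothelial markers 0 were called, beside the same 7.78%, with PECAM1 at -0.30 ± 0.12 (adjusted p = 0.129, limma) and an r of 0.44 with HP. The other detected ones had r with HP of 0.13 (TEK), 0.03 (CDH5), -0.07 (ENG) and -0.12 (VWF). VWF had a difference in the other direction (0.24 ± 0.43). Muscle identity was plain from ACTA1 and CKM, at mean signals of 24171 and 29156, and 0 of 10 muscle markers were called, beside the same 7.78%. ACTN3, the fast fibre actinin, had the most negative r, at -0.62 with HP and -0.67 with MT1A. The median r of the 10 was -0.30 with HP and -0.40 with MT1A. DES (0.20), MB (0.17) and ACTA1 (0.02) had a positive r with HP.

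Some measures of the whole array also moved with the 3 genes, and others did so little. The first principal component of the detected genes, which held 14.5% of the variation, had an r of 0.71 with MT2A, 0.60 with MT1A and 0.53 with HP, and means of -10.9 ± 9.74 (SD) in high and 9.89 ± 11.5 in low muscling. The median log2 signal of the array had an r of -0.53 with HP, -0.47 with MT1A and -0.21 with MT2A, and means of 5.99 ± 0.05 in high and 5.94 ± 0.06 in low muscling. The ratio of 3′ to 5′ signals of the actin control, a sign of RNA quality, had an r of 0.41 with HP and 0.25 with both metallothioneins, and that of the GAPDH control had -0.10 with HP and -0.32 with MT2A. For the EF1A control r was 0.08 with HP, -0.09 with MT1A and -0.06 with MT2A. With quantile normalization or median centring, which change the array level, the log2 difference of HP was -1.96 under each. The part of the RNA quality and of the first component was not tested.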

How the data were processed

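LM muscle RNA of 40 sheep was hybridised by the authors to the GeneChip Bovine Genome array, 1 array per animal. The deposited values are MAS5 signal intensities on a linear scale (0.1 to 36463.9), with each array scaled to a trimmed mean of 200. The MAS5 version, like any scan date or batch, is not given in the sources used here, and Present flags were not used. Signals were taken as log2 without further normalization. Of 24016 probe sets other than controls, 13292 had 1 symbol in the platform annotation. Each gene was represented by its probe set with the highest mean, and 6360 of 9155 genes with a mean of at least 61.8 were taken as detected.

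The muscling classes were compared in R 4.3.3 by limma 3.58.1, taking sire as a block of estimated correlation 0.135, and sires within a class by limma's moderated F, both with Benjamini-Hochberg adjustment over the detected genes at 0.05. Correlations used 100000 permutations of the animals (Python 3.11.15, numpy 2.4.6, scipy 1.17.1). The routines were tested on simulated data. Progeny of a sire are not independent, so permutation p-values over animals are too small where families differ.

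The genes and gene lists were chosen with earlier results of these data known. Named genes are the 3 genes, from each list genes among the 2 detected with the smallest p and the 2 with the largest size of r with HP or MT2A, and for each of the 3 genes the 5 most and 3 least like it. Others were named for their role or to show the range of a list. Alternatives were median centring or quantile normalization of the arrays, the mean over probe sets, signals below the 20th percentile set to it, signals under the detection line set to it (added after seeing the data), other filters, no block, sire means as samples, and the removal of each family or of the array least like the others. The position of the probe sets in a genome was not used here.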

Additional observations from a re-analysis of the deposited data

Results flagged for a closer look

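The MT1A signal of progeny 11 of sire 5, 900, stood apart from those of the 7 other progeny of that sire. Its gap to the next animal was 0.554 of the range of the family on the log2 scale, above Dixon's 95% critical value of 0.526 for 8 animals. Of the 18 families tested over the 3 genes this was the 1 found, and chance gives about 1 in 20.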

How the results depend on the processing

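The log2 difference between high and low muscling kept its sign for MT1A, MT2A and HP under all 16 alternatives. With signals under the detection line set to it, chosen after seeing the data, HP was not called (-1.01, adjusted p = 0.0878) and MT2A was (-0.67). With sire means as samples (3 against 3), MT1A (-1.33, adjusted p = 0.0726) and HP (-1.99, 0.198) were not called, and limma called 0 genes in either direction, with 886 at an unadjusted p under 0.05. MT1A was also not called without sire 2 (-1.28), 7 (-1.23), 16 (-1.20) or 5 (-1.36), and HP without sire 7 (-1.44), 16 (-1.65) or 5 (-1.90). MT2A was called with quantile normalization (-0.69), median centring (-0.73), the mean over probe sets (-0.67), no detection filter (-0.68), all probe sets (-0.68), no block (-0.70) and without sire 17 (-0.77). Each of the 3 genes had 1 probe set, so the mean over probe sets, no filter and all probe sets left their signals unchanged. In these settings only the other genes of the fit changed, and with them the block correlation and the adjustment, so they add no separate support. Over all genes, the calls higher and lower in high muscling were 145 and 350, and became 92 and 556 with median centring, 643 and 544 over all probe sets, 531 and 1055 without the block, 94 and 196 without sire 2, 81 and 191 without sire 7, 9 and 20 without sire 16, 383 and 838 without sire 17 and 7 and 16 without sire 5. Without sire 11, 233 were higher. No alternative made the sires of a class differ for the 3 genes, while the 1402 genes called there became 407 without sire 11 and 846 without sire 17. Correlations stayed positive in all settings. They did not pass within high muscling (0.0857 for MT1A with MT2A, 0.25 for MT1A with HP and 0.25 for MT2A with HP), nor for MT2A with HP within low muscling (0.43). The causes were not tested, and array number limits all of these. No paired analysis was possible because the animals of the 2 classes share no number.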
